A study of Caenorhabditis elegans with 16 samples.

Results

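The cytochrome P450 genes of Caenorhabditis elegans were followed through heat shock in worms without functional ADARs, the adenosine deaminases that edit double-stranded RNA, and in wild-type worms. Members were the transcripts in the table of normalized counts whose gene symbol has the form cyp, a family number, subfamily letters and a gene number. This form matched 81 transcripts, called features here. With a mean of at least 1 normalized count over the 16 libraries, 79 features of 76 genes in 24 subfamilies remained, of 24401 features that passed the same filter. The features left out were cyp-33B1, with a mean of 0.623 normalized counts, and cyp-35D2, with a mean of 0.33. The heat-shocked ADAR mutants comprised 5 libraries, 3 of BB4 and 2 of BB21, and ADAR mutants under standard conditions comprised 5 libraries of the same strains. BB4 carries the alleles gv6 of adr-1 and gv42 of adr-2, and BB21 the alleles tm668 of adr-1 and ok735 of adr-2. N2, the Bristol wild type, had 3 libraries after heat shock and 3 under standard conditions. The worms were at the L4 larval stage when treatment began. RNA came from whole worms, so the counts mix all tissues. Heat shock was 75 min at 34 °C, after which the worms were kept 20 min at room temperature and 3 h at 20 °C, whereas the standard worms stayed at 20 °C. The worms were collected after this time, and the authors allow that some may by then have developed further and made embryos. Poly(A) RNA was sequenced.

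Cytochrome P450 enzymes are heme proteins that insert oxygen into lipids, steroids and foreign compounds, with electrons handed on by a P450 reductase and by cytochrome b5. In worms, as in mammals, some members act on endogenous lipids and hormones, whereas large and recently duplicated subfamilies are known mainly for their induction by xenobiotics, much of it in the intestine. By sequence, the worm families 13 and 25 resemble mammalian CYP3, families 33, 34 and 35 resemble CYP2, and families 29, 31, 32, 37 and 42 resemble CYP4, which hydroxylates fatty acids. Most P450s of C. elegans have no assigned substrate.

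The labels were checked first. Normalized counts of adr-2 (T20H4.4) were 155 to 534 in heat-shocked ADAR mutants and 140 to 593 in ADAR mutants under standard conditions, and both ranges lay below those of N2, 732 to 1060 after heat shock and 1338 to 1442 under standard conditions. The most abundant adr-1 transcript (H15N14.1c) had 418 to 1068 normalized counts in heat-shocked ADAR mutants and 429 to 830 in ADAR mutants under standard conditions, likewise below N2, 1335 to 2619 after heat shock and 1560 to 2683 under standard conditions. The small heat-shock gene hsp-16.2 had 707 to 3400 normalized counts in ADAR mutants after heat shock, against 374 to 649 under standard conditions, and 1438 to 5400 in N2 after heat shock, against 332 to 1066 under standard conditions. Libraries held between 4699505 and 35693369 reads. The 6 libraries of BB4 replicate 3, BB21 replicate 2 and N2 replicate 3, whose titles end differently from the rest, were deep (30011732 to 35693369 reads), and the other 10 were shallow (4699505 to 9624995 reads). A single read was worth between 0.344 and 3.17 normalized counts. Each strain and replicate number had both a heat-shocked and a standard library in the same set, so that 8 pairs could be compared within sets. The deep set joins libraries with different title endings. These endings differ between the strains and, for BB4 replicate 3, between the heat-shocked and the standard library. Strain and title ending cannot be told apart within the deep set. In the values below, BB4 libraries are given in the order of replicates 1, 2 and 3, and BB21 libraries in the order of replicates 1 and 2.

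P450 genes spanned 3 orders of magnitude in these worms, and cyp-31A2, cyp-44A1 and cyp-43A1 lay at the top. The 79 features had means of 1.23 to 1243 normalized counts, with a median of 54.1, against a median of 164 over all 24401 features. To compare genes, means were divided by coding length, or by exon length for the 4 annotated pseudogenes. On this scale the highest was cyp-31A2, which makes lipids needed by the eggshell, at 837 normalized counts per kb. It was followed by cyp-44A1, the P450 of mitochondrial type in the worm, at 629.9 per kb and by cyp-43A1 at 458 per kb. Next came cyp-31A5 at 441, cyp-35C1 at 422, cyp-31A3 at 395, cyp-35A2 at 337 and cyp-14A5 at 273 normalized counts per kb. The place of cyp-31A5 above cyp-31A3 rests on its short annotated coding length, 924 nt against 1485 nt. Its mean was 408 normalized counts, against 586 for cyp-31A3. Members of 1 subfamily differed widely. In cyp-14A the levels ran from 0.825 per kb for cyp-14A3 to 273 for cyp-14A5, and in cyp-34A from 0.895 for cyp-34A1 to 209 for cyp-34A8. The 12 genes of cyp-13A were all low, between 1.07 per kb for the pseudogene cyp-13A9 and 38.5 for cyp-13A5. In all, 29 features had a mean over 100 normalized counts and 26 a mean under 20, where single reads weigh most.

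**Figure D1:**
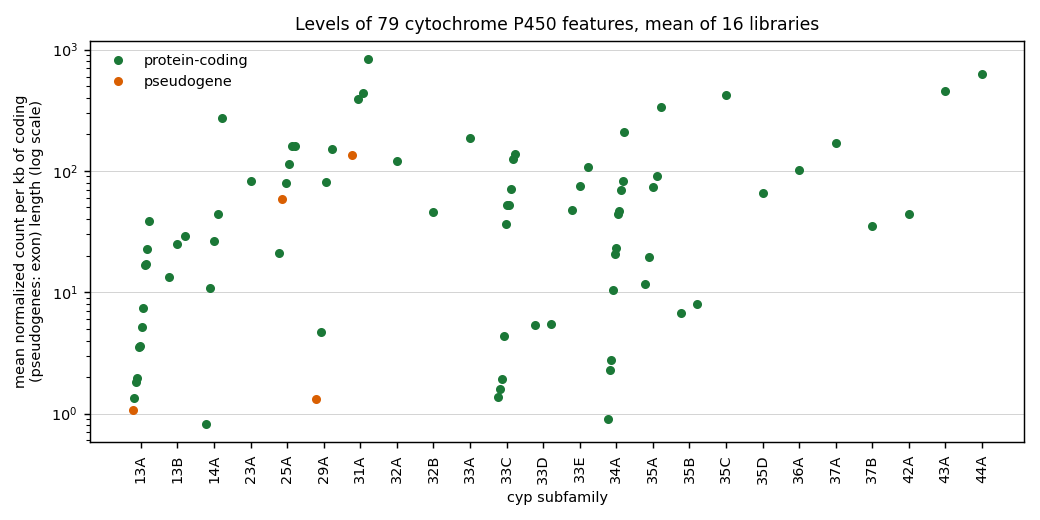
Mean normalized count per kb of coding length (exon length for pseudogenes) over 16 libraries, on a log axis, for each of the 79 cytochrome P450 features, grouped by subfamily. Green points are protein-coding features (75) and orange points annotated pseudogenes (4), and cyp-31A2 is the highest point at 837 per kb.

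Many of these genes are neighbours in the genome. In the order of genes of the WBcel235 annotation, 37 of the 76 genes stood directly beside another member, in 11 runs. The longest runs were 8 cyp-13A genes (cyp-13A2 to cyp-13A9) and 6 cyp-34A genes (cyp-34A5 to cyp-34A10). Others held cyp-25A1, cyp-25A2 and cyp-25A3, or cyp-14A1, cyp-14A2 and cyp-14A3. The authors allowed a read to align to several transcripts, so that reads of similar copies may be shared between members. No member had the same reads as another feature in all 16 libraries.

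After heat shock, a small group of P450 genes fell in the ADAR mutants, none passed the test as higher, and none passed it in N2 in the fit of 4 groups. Values were tested as log2 of the normalized count plus 1 with limma over all 24401 features, with Benjamini-Hochberg adjustment of two-sided p-values, and a call is an adjusted p under 0.05. In ADAR mutants, 5 members (6.33%) were called lower, cyp-13B2, cyp-14A1, cyp-31A2, cyp-31A3 and cyp-33C2, against 2.39% of all features. No member was called higher in ADAR mutants by limma, against 5.01% of all features, with 5 members higher at an unadjusted p under 0.05 (12.9% of all features were) and 0 called by edgeR (5.35% of all features) and 3 by DESeq2 (8.44%). In N2, limma called 0 members lower (0.537% of all features) and 0 higher (2.36% of all features). At an unadjusted p under 0.05, 15 members were lower and 5 higher in N2, against 7.60% and 12.2% of all features, edgeR called 0 in either direction (0.156% of all features lower and 1.47% higher), and DESeq2 called 4 lower and 0 higher, against 2.52% and 5.99% of all features. At the thresholds of the study's methods, which add a log2 fold change beyond 2 in size, limma gave only cyp-13B2 lower in ADAR mutants, against 0.963% of all features. The study used DESeq2. At these thresholds DESeq2 gave 1 member lower and 1 higher in ADAR mutants, against 279 and 1200 of the 24401 features. In N2 it gave 0 in either direction, against 50 lower and 961 higher.

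Heat-shocked and standard libraries of the same strain and number deviated together from their groups, and a fit with these pairs as a block called more members. In ADAR mutants it called 12 lower (15.2% of members, against 9.75% of all features). These were cyp-13B2, cyp-14A1, cyp-25A1, cyp-25A2, cyp-25A3, cyp-29A3, cyp-31A2, cyp-31A3, cyp-31A5, cyp-33C2, cyp-34A4 and cyp-44A1. In N2 it called 9 lower (11.4%, against 9.91% of all features), and cyp-14A2 was the only one of them not also called in ADAR mutants. Called higher with the block were cyp-14A5, cyp-37B1 and cyp-43A1 in ADAR mutants (3.80%, against 13.3% of all features) and cyp-14A5 and cyp-37B1 in N2 (2.53%, against 9.57% of all features). Of these, only cyp-37B1 in N2 also had a log2 fold change over 2, as did 1074 of the 24401 features called higher there. In all, 16 of the 79 features were called by at least 1 of these fits. The matching share over all features was not counted, so this number cannot be set against it.

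The members lay slightly below all features as a whole, except in N2 within the deep libraries. Their median log2 fold change after heat shock was -0.11 in ADAR mutants, against 0.07 over all features, and -0.34 in N2, against 0.04. Within the shallow libraries these medians were -0.28 against 0.06 in ADAR mutants and -0.31 against 0.04 in N2. Within the deep ones they were -0.16 against 0.05 in ADAR mutants and, with 1 N2 library per condition, -0.02 against -0.04 in N2. The range in ADAR mutants ran from -2.65 for cyp-13B2 to 1.84 for cyp-37B1, and in N2 from -2.58 for cyp-35D1 to 2.38 for cyp-37B1. In ADAR mutants, 7 members were lower after heat shock with no overlap between groups (8.86%, against 4.20% of all features) and 0 were higher (against 6.48%). In N2, 14 members were lower with no overlap (17.7%, against 7.62% of all features) and 6 higher (7.59%, against 11.0%). The 14 include cyp-34A9a and cyp-34A9b, transcripts of the same gene with similar counts. Across the 8 pairs, 12 members (15.2%) were lower after heat shock in every pair, against 12.4% of all features, and 3, cyp-14A5, cyp-32B1 and cyp-37B1 (3.80%), were higher in every pair, against 11.9%.

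**Figure D2:**
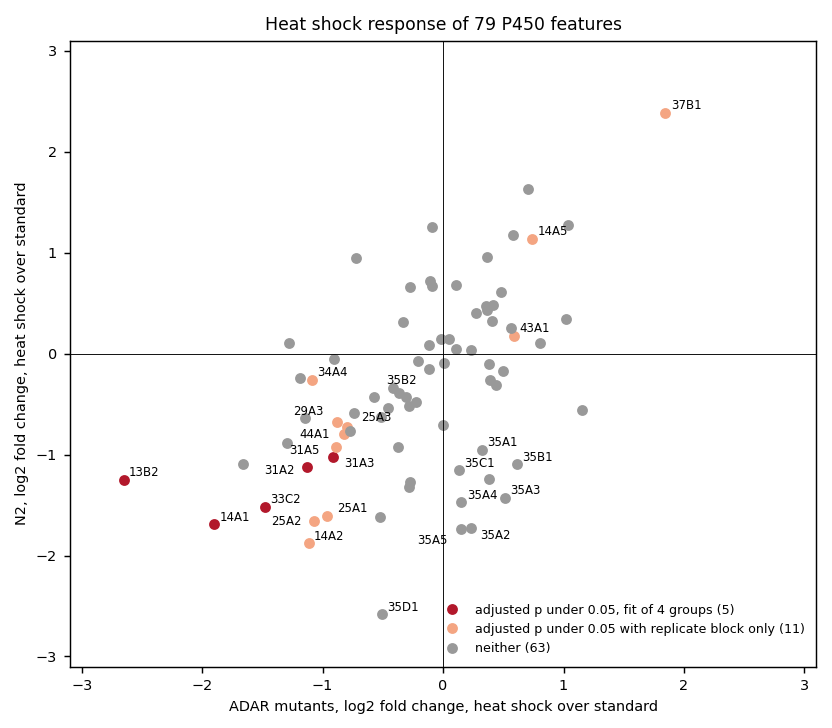
Log2 fold change of heat shock over standard conditions in ADAR mutants (x axis) and in N2 (y axis) for the 79 cytochrome P450 features. Red points passed an adjusted p of 0.05 in the fit of 4 groups, light points only with the replicate block, and grey points in neither. Labelled are the called features and the cyp-35 genes, which lie below 0 on the N2 axis and with 7 of 9 above 0 on the mutant axis.

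Of the members called lower, cyp-31A2 was the most abundant. CYP-31A2 and CYP-31A3 are nearly identical enzymes that act with the P450 reductase EMB-8 to make lipids of the eggshell's permeability barrier. Normalized counts of cyp-31A2 were 910.5, 501 and 786 in BB4 and 912 and 548 in BB21 after heat shock, against 1692, 1634 and 1578 in BB4 and 1629 and 1268 in BB21 under standard conditions. All 5 heat-shocked mutant libraries lay below all 5 standard ones. In N2, cyp-31A2 had 761, 1347 and 633 after heat shock, against 2081, 1914 and 1690 under standard conditions, again with no overlap, although replicate 2 fell less than the others. The log2 fold change was -1.13 (SE 0.23, adjusted p = 0.011) in ADAR mutants and -1.12 (SE 0.30, adjusted p = 0.058) in N2. With the block the adjusted p in N2 was 0.012.

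For cyp-31A3, normalized counts were 483, 369 and 332 in BB4 and 429 and 260.4 in BB21 after heat shock, against 854, 779.5 and 546 in BB4 and 788 and 553 in BB21 under standard conditions. N2 had 450.2, 581 and 301 after heat shock, against 1046, 917 and 689 under standard conditions. In both genotypes the heat-shocked libraries lay below the standard ones, and the log2 fold change was -0.91 (SE 0.24, adjusted p = 0.033) in ADAR mutants and -1.02 (SE 0.31, adjusted p = 0.086) in N2, where the block gave an adjusted p of 0.0079. The call of cyp-31A3 in ADAR mutants was lost without any 1 of 6 libraries, BB4 replicates 2 and 3 and BB21 replicate 2 after heat shock and BB4 replicates 1 and 2 and BB21 replicate 1 under standard conditions (adjusted p 0.073 to 0.088). The ratio of cyp-31A3 to cyp-31A2 varied between 0.346 and 0.736 over the 16 libraries, so their counts were not identical. Whether the copies share reads cannot be told from this ratio. The 4 cyp-31A features correlated pairwise at 0.752 to 0.962 over the 16 libraries, with a median of 0.90, so their falls may not be independent. Another gene, cyp-31A5, was lower after heat shock in 8 of 8 pairs, with log2 fold changes of -0.89 (SE 0.29, adjusted p = 0.079) in ADAR mutants and -0.92 (SE 0.37, adjusted p = 0.19) in N2, and was called only with the block (adjusted p = 0.0067 in ADAR mutants and 0.025 in N2). The annotated pseudogene cyp-31A1 was also lower in 8 of 8 pairs, with log2 fold changes of -0.57 (SE 0.23, adjusted p = 0.15) in ADAR mutants and -0.43 (SE 0.29, adjusted p = 0.47) in N2, and was called by neither fit, though with the library set as a term it was called in ADAR mutants. Without N2 replicate 3 after heat shock its log2 fold change in N2 was -0.24.

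Markers of oocytes and early embryos moved with the cyp-31A genes. Of the 6 markers, oma-1, oma-2, rme-2, puf-5, cbd-1 and perm-2 (C44B12.1), limma called 5 lower after heat shock in ADAR mutants and 2 in N2, and 6 and 4 with the block. Their summed normalized count was 7169 to 11120 in heat-shocked ADAR mutants and 19460 to 24650 in ADAR mutants under standard conditions. In N2 it was 8575 to 15570 after heat shock and 25420 to 26690 under standard conditions, and none of the 6 was at 0. The median log2 fold change of these markers was -1.31 in ADAR mutants and -1.22 in N2. Of 5 germ line features (pgl-1, glh-1, glp-1 and him-3), limma called none, and with the block 0 in ADAR mutants and 1 lower in N2. All 5 were below 0 in both genotypes, with a median of -0.07 in ADAR mutants and -0.33 in N2. In these bulk samples fewer oocytes and less RNA per oocyte cannot be told apart, and the part of the oocyte markers in the fall of cyp-31A was not tested.

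Of the genes that feed electrons to P450s, a reductase and hpo-19 were called lower with the block and none was called in the fit of 4 groups. The reductase gene emb-8 had normalized counts of 936, 993 and 1993 in BB4 and 1442 and 1934 in BB21 after heat shock, against 1692, 1771 and 2818 in BB4 and 2080 and 2665 in BB21 under standard conditions, and in N2 of 694, 1011 and 1771 after heat shock, against 1674, 1608 and 3074 under standard conditions. It was lower after heat shock in 8 of 8 pairs, with log2 fold changes of -0.64 (SE 0.31, adjusted p = 0.26) in ADAR mutants and -0.91 (SE 0.40, adjusted p = 0.22) in N2, and passed with the block (adjusted p = 0.0053 and 0.009). The same held for hpo-19 (T05H4.5), related to cytochrome b5 reductase, at -0.66 and -0.96 (adjusted p = 0.0056 and 0.009 with the block). The cytochrome b5 genes cytb-5.1 (C31E10.7) and cytb-5.2 (W02D3.1) and the neighbour of hpo-19, T05H4.4, were not called, with log2 fold changes of -0.49, 0.17 and -0.83 in ADAR mutants. Thus 0 of 5 electron donors were called in the fit of 4 groups and 2 of 5 with the block, in either genotype, where the block called 9.75% of all features lower in ADAR mutants and 9.91% in N2.

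The mitochondrial-type gene cyp-44A1 was lower after heat shock in 8 of 8 pairs. Its normalized counts were 947, 579.8 and 444 in BB4 and 610.5 and 442 in BB21 after heat shock, against 1256, 1214 and 806 in BB4 and 1169 and 792 in BB21 under standard conditions. Those of N2 were 1056, 1031 and 389 after heat shock, against 1623, 1517 and 905 under standard conditions. The groups overlapped in both genotypes, since the deep libraries of either condition lay below the shallow ones, but the fall within each pair was regular. Fitted log2 fold changes were -0.82 (SE 0.31, adjusted p = 0.14) in ADAR mutants and -0.80 (SE 0.40, adjusted p = 0.29) in N2. With the block both were called (adjusted p = 0.0029 and 0.018), and the values were -0.85 and -1.22 within the deep libraries alone, with 1 N2 library per condition, and -0.80 and -0.59 (adjusted p = 0.038 and 0.14) within the shallow ones. Without N2 replicate 3 after heat shock the log2 fold change in N2 was -0.32.

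Of the low-abundance members, cyp-13B2 fell most in ADAR mutants. Its normalized counts were 1.48, 4.26 and 2.12 in BB4 and 5.42 and 2.94 in BB21 after heat shock, against 20.4, 16.4 and 40.6 in BB4 and 34.9 and 17.2 in BB21 under standard conditions, where the heat-shocked shallow libraries held only a handful of reads each. In N2 they were 34.9, 16.7 and 7.04 after heat shock, against 42, 42.6 and 35.5 under standard conditions. The groups did not overlap in either genotype, but in N2 replicate 1 was close to the standard libraries after heat shock. The log2 fold change was -2.65 (SE 0.44, adjusted p = 0.0039) in ADAR mutants and -1.25 (SE 0.57, adjusted p = 0.24) in N2, and N2 was not called with the block either (adjusted p = 0.11). Without N2 replicate 3 after heat shock the value in N2 was -0.70. The difference of the responses was -1.40 (SE 0.72, adjusted p = 1) and did not pass the test. For cyp-33C2, which averaged 3.58 ± 1.41 normalized counts in heat-shocked ADAR mutants and 11.5 ± 2.75 in ADAR mutants under standard conditions (SD, n = 5 each), the log2 fold change was -1.48 (SE 0.43, adjusted p = 0.048) in ADAR mutants and -1.52 (SE 0.55, adjusted p = 0.14) in N2. That call was lost without any 1 of 14 of the 16 libraries (adjusted p 0.050 to 0.12), and held without N2 replicate 1 or N2 replicate 3 after heat shock. In N2 the log2 fold change of cyp-33C2 was -0.80 without replicate 1 after heat shock, which held 0 counts of it. The shallow heat-shocked mutant libraries, BB4 replicates 1 and 2 and BB21 replicate 1, had 2.95, 2.13 and 2.71 normalized counts. A single read there was worth 1.48, 2.13 and 1.35, so these values are near the floor.

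In the cyp-14A run, cyp-14A1 and cyp-14A2 were lower after heat shock and cyp-14A5 of the same subfamily was higher. Normalized counts of cyp-14A1 were 29.5, 32 and 14.4 in BB4 and 13.5 and 13.8 in BB21 after heat shock, against 95.6, 90.2 and 56.8 in BB4 and 63.1 and 73.5 in BB21 under standard conditions, with no overlap. In N2 they were 66.6, 79.5 and 10.8 after heat shock, against 175, 149 and 80.2 under standard conditions, where the highest heat-shocked library came within 1 count of the lowest standard one. Fitted log2 fold changes were -1.90 (SE 0.49, adjusted p = 0.031) in ADAR mutants and -1.69 (SE 0.64, adjusted p = 0.15) in N2, where the block gave an adjusted p of 0.021. Without N2 replicate 3 after heat shock the value in N2 was -0.81. Without any 1 of 7 libraries the call in ADAR mutants was lost (adjusted p 0.056 to 0.075). These were BB4 replicate 3 and BB21 replicates 1 and 2 after heat shock, and BB4 replicates 1 and 2 and BB21 replicates 1 and 2 under standard conditions.

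In ADAR mutants, normalized counts of its neighbour cyp-14A2 were 22.1, 12.8 and 33.5 in BB4 and 8.12 and 62.9 in BB21 after heat shock, against 53.3, 41 and 64.3 in BB4 and 36.2 and 54.6 in BB21 under standard conditions, and BB21 replicate 2 went the other way from the other 4 pairs. The log2 fold change was -1.12 (SE 0.50, adjusted p = 0.22), with an adjusted p of 0.058 with the block, and in the deep libraries it was -0.36. In N2, cyp-14A2 had 6.34, 24.4 and 22.8 after heat shock, against 54.8, 72.8 and 52.6 under standard conditions, with no overlap, and a log2 fold change of -1.88 (SE 0.65, adjusted p = 0.12), called with the block (adjusted p = 0.028). The third of the run, cyp-14A3, was near the floor with a mean of 1.23 normalized counts, and cyp-14A4, outside the run, was lower in 8 of 8 pairs at -1.67 in ADAR mutants and -1.09 in N2, called only in ADAR mutants with the library set as a term. Without BB4 replicate 2 after heat shock its value in ADAR mutants was -0.98.

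The run of cyp-25A1, cyp-25A2 and cyp-25A3 was called lower after heat shock in both genotypes with the block, whereas the other cyp-25A genes were not called. Normalized counts of cyp-25A2 were 87.1, 134 and 202 in BB4 and 115 and 224 in BB21 after heat shock, against 234, 420.1 and 284 in BB4 and 429 and 210.2 in BB21 under standard conditions. N2 had 171, 78.2 and 120.5 after heat shock, against 500.3, 386 and 268 under standard conditions, with no overlap. BB21 replicate 2 was the only pair in which cyp-25A2 was not lower, and the same pair was the exception for cyp-25A1. Log2 fold changes of cyp-25A2 were -1.07 (SE 0.33, adjusted p = 0.069) in ADAR mutants and -1.66 (SE 0.43, adjusted p = 0.053) in N2, those of cyp-25A1 -0.97 (SE 0.35, adjusted p = 0.12) and -1.61 (SE 0.46, adjusted p = 0.069), and those of cyp-25A3, lower in 8 of 8 pairs, -0.80 (SE 0.31, adjusted p = 0.15) and -0.72 (SE 0.40, adjusted p = 0.35). All 3 were called with the block in both genotypes (adjusted p 0.0053 to 0.037). In ADAR mutants the log2 fold changes of cyp-25A1 and cyp-25A2 were -0.14 and -0.20 within the deep libraries and -1.51 and -1.65 within the shallow ones. That of cyp-25A3 in N2 was -0.31 without N2 replicate 3 after heat shock and -1.10 without N2 replicate 1 after heat shock. For cyp-25A4, the pseudogene cyp-25A5 and cyp-25A6 the log2 fold changes were -0.11, -0.21 and -0.27 in ADAR mutants and 0.09, -0.07 and 0.66 in N2, none called.

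The last members called lower with the block were cyp-29A3, one of the P450s that make eicosanoids from eicosapentaenoic acid, and cyp-34A4. Normalized counts of cyp-29A3 were 28, 78.9 and 78 in BB4 and 96.1 and 56.2 in BB21 after heat shock, against 109.7, 107 and 132 in BB4 and 142 and 94.5 in BB21 under standard conditions, and in N2 174, 182 and 56.3 after heat shock, against 287, 201 and 128 under standard conditions. All 8 pairs were lower after heat shock, BB4 replicate 1 by most, and the log2 fold change was -0.88 (SE 0.40, adjusted p = 0.22) in ADAR mutants and -0.68 (SE 0.51, adjusted p = 0.54) in N2 (adjusted p = 0.033 and 0.16 with the block). Without N2 replicate 3 after heat shock the value in N2 was -0.13, and without N2 replicate 1 under standard conditions -0.40. In ADAR mutants cyp-34A4 had 45.8, 29.8 and 72.1 in BB4 and 71.8 and 78.4 in BB21 after heat shock, against 139.5, 91.9 and 162 in BB4 and 121 and 102 in BB21 under standard conditions, without overlap, at a log2 fold change of -1.09 (SE 0.39, adjusted p = 0.11) and an adjusted p of 0.012 with the block. In N2 its log2 fold change was -0.26 (SE 0.50), between -0.72 without replicate 1 and 0.24 without replicate 3 after heat shock, and the difference of the responses, -0.83 (SE 0.63, adjusted p = 1), did not pass. The other eicosanoid-forming enzymes, cyp-33E2 and cyp-13A12, were not called, with log2 fold changes of -0.31 and -1.28 in ADAR mutants and -0.43 and 0.10 in N2.

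**Figure D3:**
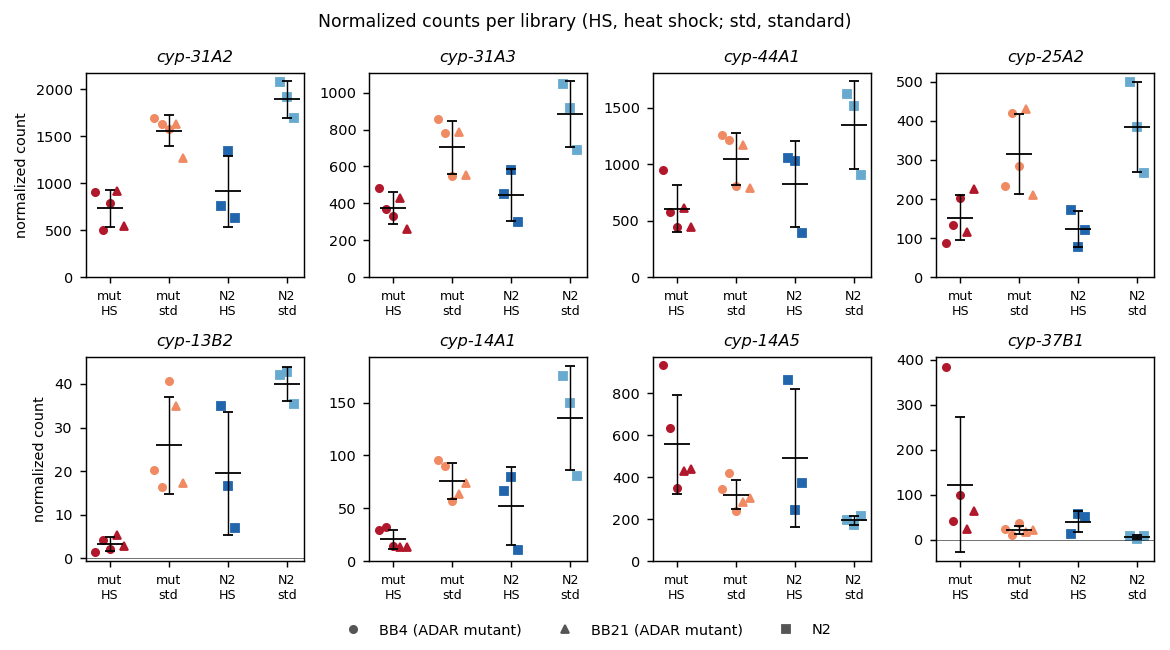
Normalized counts per library of 8 P450 genes in heat-shocked ADAR mutants, ADAR mutants under standard conditions, heat-shocked N2 and N2 under standard conditions, with circles for BB4, triangles for BB21 and squares for N2. Black lines are the mean and SD (n = 5 and 3), and heat-shocked libraries lie below standard ones for cyp-31A2, cyp-31A3, cyp-13B2 and cyp-14A1 without overlap in either genotype.

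Few P450 genes were higher after heat shock. The gene cyp-14A5 had normalized counts of 934, 633 and 347 in BB4 and 432 and 438 in BB21 after heat shock, against 346, 422 and 238 in BB4 and 280.5 and 302 in BB21 under standard conditions. In N2 it had 866, 244 and 371 after heat shock, against 197, 172 and 215 under standard conditions. Every pair was higher after heat shock, and BB4 replicate 1 and N2 replicate 1 were highest. Log2 fold changes were 0.74 (SE 0.34, adjusted p = 0.22) in ADAR mutants and 1.14 (SE 0.43, adjusted p = 0.16) in N2, and both passed with the block (adjusted p = 0.04 and 0.027). Without N2 replicate 1 after heat shock the value in N2 was 0.63.

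Of the members called higher with the block, cyp-37B1 had the largest fold change. Its normalized counts were 385, 40.5 and 98.8 in BB4 and 24.4 and 62.9 in BB21 after heat shock, against 23.5, 11.5 and 36.7 in BB4 and 16.1 and 21 in BB21 under standard conditions, and BB4 replicate 1 stood far above the other heat-shocked libraries. In N2 they were 12.7, 56.4 and 50.9 after heat shock, against 9.13, 1.78 and 9.21 under standard conditions, without overlap. The log2 fold change was 1.84 (SE 0.68, adjusted p = 0.13) in ADAR mutants and 2.38 (SE 0.88, adjusted p = 0.15) in N2, and both passed with the block (adjusted p = 0.04 and 0.046). Without BB4 replicate 1 after heat shock the log2 fold change in ADAR mutants was 1.26. In N2 the log2 fold change was 1.76 without replicate 2 under standard conditions, which held a single read, and 3.05 without replicate 1 after heat shock. The gene cyp-32B1 was also higher in 8 of 8 pairs, with normalized counts of 357, 64 and 83.1 in BB4 and 94.8 and 57.5 in BB21 after heat shock, against 64.3, 41 and 51.3 in BB4 and 63.1 and 31.9 in BB21 under standard conditions, and in N2 of 57.1, 75.7 and 31.1 after heat shock, against 27.4, 16 and 19.7 under standard conditions, but it was called by neither fit (DESeq2 called it in ADAR mutants), at 1.04 (SE 0.46, adjusted p = 0.22) in ADAR mutants, 0.58 without BB4 replicate 1 after heat shock, and 1.28 (SE 0.60, adjusted p = 0.25) in N2.

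The abundant gene cyp-43A1 was higher after heat shock in all 5 mutant pairs and in 1 of 3 N2 pairs. Its normalized counts were 584, 1292 and 805 in BB4 and 1021 and 858 in BB21 after heat shock, against 571, 594 and 573 in BB4 and 542 and 651 in BB21 under standard conditions, and in N2 675, 624.6 and 869.8 after heat shock, against 707, 674 and 531 under standard conditions. BB4 replicate 1 was nearly level with its standard library. The log2 fold change was 0.59 (SE 0.21, adjusted p = 0.1) in ADAR mutants, called with the block (adjusted p = 0.037), and 0.18 (SE 0.27, adjusted p = 0.82) in N2, 0.04 without N2 replicate 3 after heat shock, and the difference of the responses was 0.41 (SE 0.34, adjusted p = 1).

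**Figure D4:**
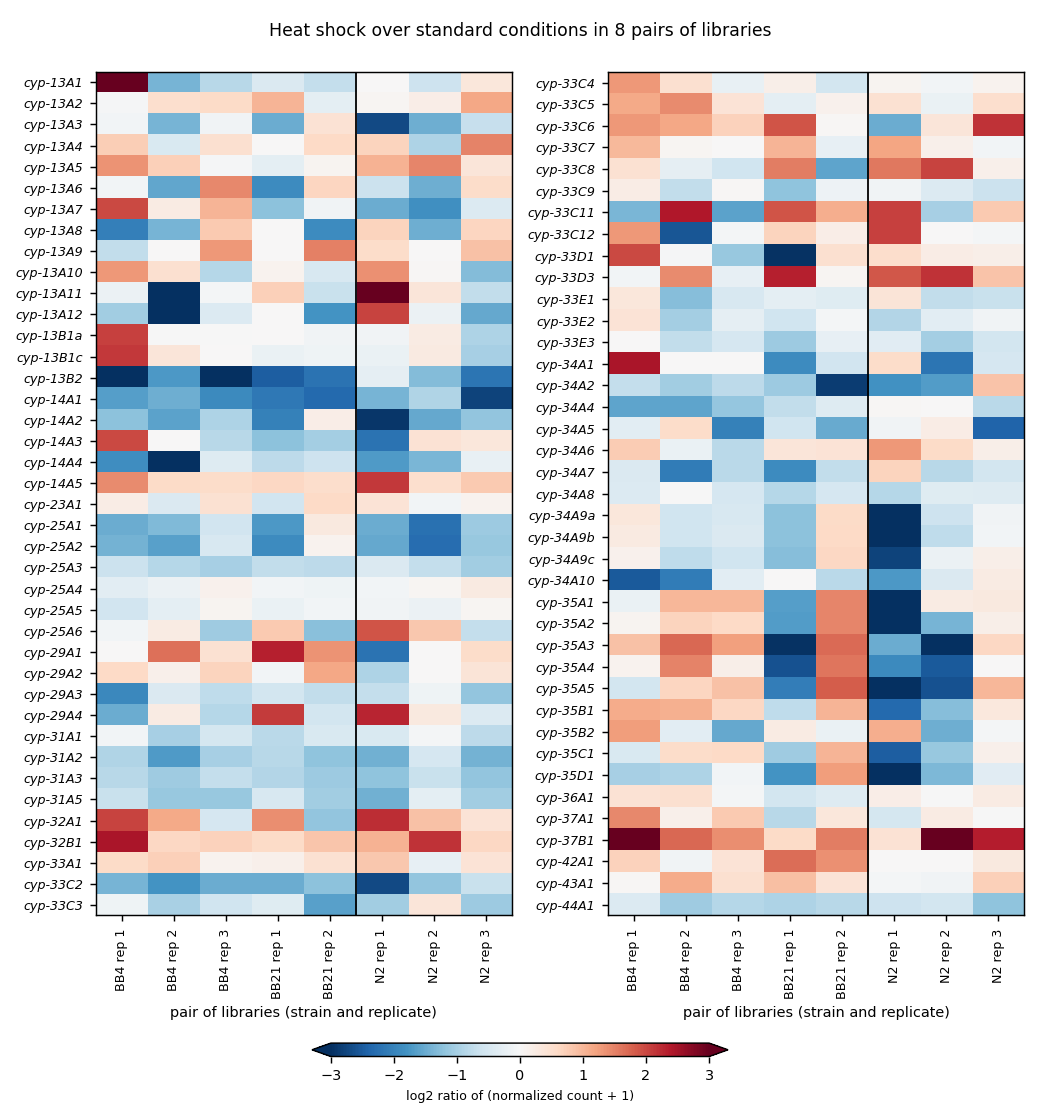
Log2 ratio of heat shock over standard conditions, with 1 added to each normalized count, for the 79 cytochrome P450 features (down) in the 8 pairs of libraries of the same strain and replicate (across), BB4 and BB21 left of the line and N2 right of it. Blue is lower and red higher after heat shock, with colours capped at 3. The cyp-31A, cyp-25A1 to cyp-25A3 and cyp-44A1 bands are blue nearly throughout, cyp-37B1 is red in 8 of 8 pairs, and the cyp-35 band changes colour between pairs.

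The cyp-35 genes, inducible by foreign compounds and known mainly from the intestine, varied widely between pairs of libraries. There were 9 of them, 5 of cyp-35A, 2 of cyp-35B and 1 each of cyp-35C and cyp-35D. Their median log2 fold change after heat shock was 0.15 in ADAR mutants and -1.43 in N2, with all 9 below 0 in N2 and 7 of 9 above 0 in ADAR mutants. None was called in either genotype in the fit of 4 groups or with the block, cyp-35D1 was called lower in N2 with the library set as a term, and the median difference of the responses was 1.71, positive in 9 of 9 with no call (lowest adjusted p = 1, and 0.71 with the block). The values turned on a few libraries. Without N2 replicate 1 after heat shock the median was -1.05 in N2 and 1.28 for the difference, without N2 replicate 1 under standard conditions it was -0.73 and 1.00, and without N2 replicate 3 under standard conditions -2.22 and 2.35. In ADAR mutants the median was -0.04, with 4 of 9 above 0, without BB21 replicate 2 under standard conditions and 0.55 without BB21 replicate 1 under standard conditions. Within the shallow libraries the medians were -0.31 in ADAR mutants and -2.22 in N2, and within the deep libraries, with 1 N2 library per condition, 0.89 and 0.18.

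Counts per library show this. For cyp-35A2, whose loss lowers fat stores, normalized counts were 362, 654 and 563 in BB4 and 300.5 and 700.3 in BB21 after heat shock, against 342, 409 and 369 in BB4 and 965 and 252 in BB21 under standard conditions. In N2 they were 79.3, 273 and 392 after heat shock, against 1267, 716 and 345 under standard conditions. N2 replicate 1 was lowest of all 16 libraries after heat shock and highest under standard conditions, and BB21 replicate 1 was high under standard conditions. For cyp-35C1, normalized counts were 282, 744 and 727 in BB4 and 508 and 639.9 in BB21 after heat shock, against 389, 510.4 and 479.8 in BB4 and 1056 and 314 in BB21 under standard conditions, and in N2 273, 457 and 597 after heat shock, against 1510, 1008 and 540 under standard conditions. Again N2 replicate 1 and BB21 replicate 1 were the highest standard libraries. For cyp-35D1, N2 had 3.17, 62.8 and 95.6 after heat shock, against 279, 162 and 120.5 under standard conditions, and the log2 fold change of -2.58 (SE 0.93, adjusted p = 0.14) was -1.17 without replicate 1 after heat shock, where the count is that of 1 read. With the library set as a term its adjusted p was 0.036.

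In the 6 deep libraries on their own, several cyp-35A genes were higher after heat shock in ADAR mutants. There, BB4 replicate 3 had 183 and BB21 replicate 2 had 217 normalized counts of cyp-35A5 after heat shock, against 99 and 60.5 under standard conditions. In this fit, which has 2 mutant libraries per condition, limma called cyp-35A1 (1.23), cyp-35A2 (1.04), cyp-35A3 (1.46), cyp-35A5 (1.35) and cyp-29A2 (0.90) higher on the log2 scale, 5 members against 11.9% of all features. It called 8 lower, against 6.88% of all features, among them cyp-13B2, cyp-14A1, cyp-31A2, cyp-31A3, cyp-31A5, cyp-33C2 and cyp-44A1. The eighth was cyp-33C8 at -1.08. In BB21 replicate 1, a shallow pair, all 5 cyp-35A genes went the other way. Sequencing depth and whatever else separates the sets cannot be told apart.

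**Figure D5:**
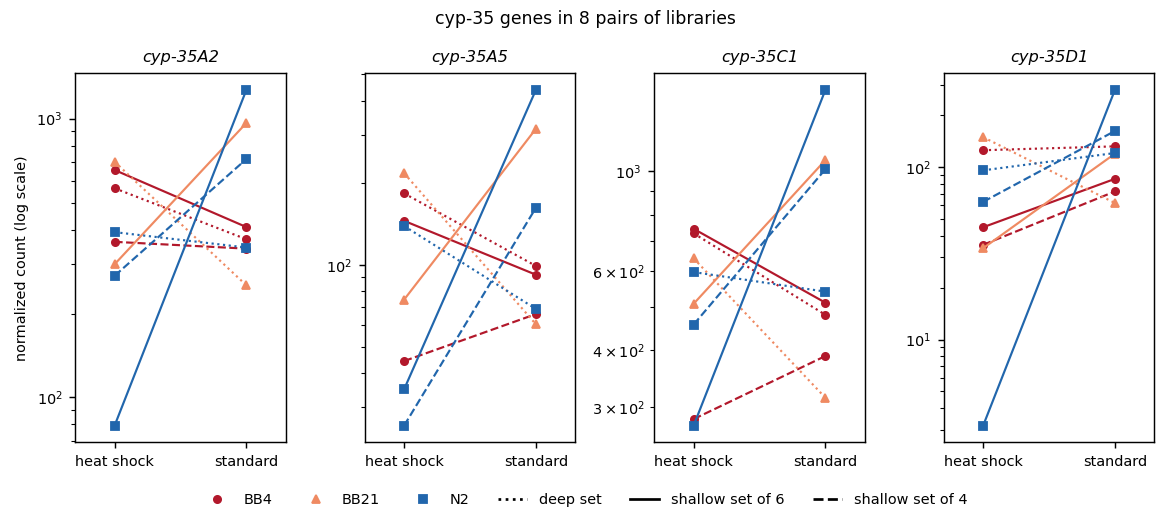
Normalized counts (log axis) of cyp-35A2, cyp-35A5, cyp-35C1 and cyp-35D1 after heat shock (left) and under standard conditions (right), with a line joining the libraries of the same strain and replicate. Colours mark BB4, BB21 and N2, dotted lines the deep set and solid and dashed lines the shallow sets of 6 and 4 libraries. Lines cross in all 4 panels, and N2 replicate 1 has the steepest.

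Markers of the intestine had a smaller difference of the same sign, and most of it rested on N2 replicate 1 after heat shock. Of 10 intestine features (elt-2, elt-7, ges-1, ifb-2, act-5, vha-6, asp-1 and cpr-1), the median log2 fold change after heat shock was 0.02 in ADAR mutants (-0.17 to 0.20 without any 1 mutant library) and -0.56 in N2, where 8 were below 0. The median difference of the responses was 0.47, above 0 in 10 of 10. Without N2 replicate 1 after heat shock the median was -0.05 in N2, with 5 of 10 below 0, and 0.01 for the difference, with 5 of 10 above 0. None was called in the fit of 4 groups, and the block called 1 lower in ADAR mutants and 4 in N2. Their summed normalized count was 20980 to 39890 in heat-shocked ADAR mutants and 25730 to 42430 in ADAR mutants under standard conditions, and in N2 19270 to 30420 after heat shock and 30500 to 39510 under standard conditions, with none at 0. Their part in the cyp-35 values was not tested.

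No P450 gene was called between the genotypes. Without heat shock, ADAR mutants against N2 gave 0 called members (0.00410% of all features, that is 1) and a median log2 fold change of -0.17, against -0.01 over all features. With limma 5 members had an unadjusted p under 0.05, all higher in ADAR mutants, where 3.14% of all features were higher and 0.738% lower, and edgeR and DESeq2 called 0. They were cyp-13A11 at 2.08 (SE 0.76), its neighbour cyp-13A12 at 1.86 (SE 0.71), cyp-37B1 at 1.69 (SE 0.79), or 1.06 without N2 replicate 2, cyp-33C8 at 1.32 (SE 0.49) and cyp-32B1 at 1.21 (SE 0.53). Normalized counts of cyp-13A11 under standard conditions were 23.5, 32.8 and 11.0 in BB4 and 5.37 and 16.5 in BB21. In N2 they were 1.83, 1.78 and 6.14, with replicates 1 and 2 at a single read each, and BB21 replicate 1 lay within this range. Normalized counts of cyp-13A12 under standard conditions were 47, 64 and 40.6 in BB4 and 10.7 and 91.7 in BB21, against 5.48, 8.88 and 24.6 in N2, and BB21 replicate 1 lay within the N2 range. Those of cyp-33C8 were 223, 327 and 209.8 in BB4 and 105 and 332 in BB21, against 108, 48 and 132 in N2, again with BB21 replicate 1 the only mutant library within the N2 range.

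After heat shock, ADAR mutants against N2 gave 0 called members (0% of all features, as limma called none), with a median log2 fold change of 0.19, against 0.03 over all features. At an unadjusted p under 0.05 there were 4 members, near the 4.64% of all features, and edgeR and DESeq2 called 0. They were cyp-13B2 at -2.10 (SE 0.51), cyp-34A10 at -1.37 (SE 0.59), cyp-35A2 at 1.26 (SE 0.56), or 0.58 without N2 replicate 1, and cyp-35B1, a target of the insulin pathway's DAF-16, at 1.51 (SE 0.48). For cyp-13B2 the 5 mutant libraries, at 1.48 to 5.42 normalized counts, lay below the 3 N2 libraries, at 7.04 to 34.9. Over the heat-shocked libraries of both genotypes, cyp-34A10 had 0 to 7.7 normalized counts, so its values are near the floor. For cyp-35B1 normalized counts were 25.1, 14.9 and 19.9 in BB4 and 6.77 and 19.7 in BB21, against 3.17, 3.85 and 9.52 in N2, which overlap. The response to heat shock differed between ADAR mutants and N2 for 0 members (0% of all features), with a median difference of 0.02, against 0.05 over all features. There, 2 members, cyp-35A2 and cyp-35B1, had an unadjusted p under 0.05 with limma (1.40% of all features), and edgeR, DESeq2 and the block called 0.

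Members with known roles that were not called were given the same look. The gene cyp-36A1, a target of the HIF-1 hypoxia pathway, had 109, 119.4 and 225 in BB4 and 81.2 and 179 in BB21 after heat shock, against 80, 85.3 and 234 in BB4 and 119.4 and 236 in BB21 under standard conditions, and in N2 111, 100 and 299.7 after heat shock, against 96.8, 101 and 251 under standard conditions, and so differed by set of libraries rather than by condition, with log2 fold changes of -0.02 (SE 0.45) in ADAR mutants and 0.14 (SE 0.58) in N2. Among the most abundant members of the other subfamilies, those after heat shock in ADAR mutants were 0.37 for cyp-13A5, 0.44 for cyp-13B1c, 0.05 for cyp-23A1, 0.50 for cyp-29A2 and 0.58 for cyp-32A1. They were 0.41 for cyp-33A1, 0.70 for cyp-33D3, -0.41 for cyp-33E1, -0.46 for cyp-34A8, 0.62 for cyp-35B1, 0.38 for cyp-37A1 and 0.81 for cyp-42A1. None passed either fit in either genotype. Of these, cyp-34A8 was lower in 8 of 8 pairs. In the cyp-13A subfamily of 12 genes none was called, with log2 fold changes of -1.28 to 0.41 in ADAR mutants and -1.62 to 0.96 in N2. In the cyp-33C subfamily of 10 genes only cyp-33C2 was called, and in cyp-34A, with 11 features of 9 genes, only cyp-34A4 with the block.

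Other genes of steroid and xenobiotic metabolism were counted in the same fits. The P450 daf-9, which makes the dafachronic acid hormones and does not carry a cyp name, had 2 features, neither called, at 0.90 and 1.00 in ADAR mutants and 0.09 and -0.47 in N2. The oxygenase gene daf-36, which opens the same pathway, was lower in ADAR mutants, at -1.44 (SE 0.27, adjusted p = 0.0065), and in N2 its log2 fold change was -1.14 (SE 0.35, adjusted p = 0.083), called with the block (adjusted p = 0.026). It was lower in 8 of 8 pairs, and dhs-16 and strm-1 (H14E04.1) were not called. Of 118 glutathione S-transferase and UDP-glucuronosyltransferase features, whose enzymes conjugate the products of P450s, 19 were called lower and 0 higher in ADAR mutants and 0 lower and 2 higher in N2. The shares over all features were 2.39% lower and 5.01% higher in ADAR mutants and 0.537% lower and 2.36% higher in N2. With the block the counts were 32 lower and 3 higher in ADAR mutants and 10 lower and 5 higher in N2, where those shares were 9.75% and 13.3% in ADAR mutants and 9.91% and 9.57% in N2. Of 37 features of short-chain dehydrogenases, 3 were called lower in ADAR mutants and 0 in N2, and 10 and 5 with the block. Of 32 features of 10 known regulators of detoxification and hormone genes, mdt-15, nhr-8, nhr-49, nhr-86, ahr-1, aha-1, skn-1, daf-12, daf-16 and hif-1, none was called in either genotype by either fit.

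Of the other marker lists, limma called 1 of 6 hypodermis features in ADAR mutants, dpy-13 at 2.12 (SE 0.44, adjusted p = 0.011), and none of 7 body muscle, 11 neuron, 7 pharynx and 6 sperm features. In N2 it called none of these. With the block, 3 hypodermis, 2 body muscle and 1 pharynx features were called higher and 1 sperm feature lower in ADAR mutants, and 2 hypodermis, 3 pharynx and 2 sperm features higher in N2. No listed marker was at 0 in all libraries. In the standard comparison of ADAR mutants with N2, the median log2 fold change was 0.68 for the hypodermis, 0.63 for the neuron and 0.62 for the pharynx markers. It was 0.20 for the body muscle and 0.06 for the sperm markers. The part of any of these tissues in the values of cyp-13A11 and cyp-13A12 was not tested.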

How the data were processed

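The 16 poly(A) libraries were sequenced from 1 end (50 nt). The authors trimmed and collapsed the reads, aligned them with Bowtie to WS220 transcripts, allowing multiple alignments, and counted them per transcript. Versions and strand are not given in the sources used here. The deposited signal values are these counts divided by 1 DESeq2 size factor per library, called normalized counts here. Within a tolerance of 0.001, 100% of them equal a whole number of reads times the value of 1 read, so the reads were recovered. A deposited table of the authors' own fold changes and p-values for heat shock was not used.

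Normalized counts were tested with limma 3.58.1 in R 4.3.3 (4 groups, variances with a trend, 1 added before log2, mean of at least 1), checked on simulated data, with BB4 and BB21 together as ADAR mutants. Replicates are labelled as biological. Alternatives were edgeR 4.0.16 and DESeq2 1.42.0 on the reads, TMM and quantile scaling, other pseudocounts and filters, 1 mutant strain, a term for the library set, each set alone, each library left out, and a replicate block. Libraries were paired by number. Over 8 pairs of the same strain and number, deviations from the group means correlated at 0.385 to 0.822. The library of the same number was the best match within the genotype in 5 of 8 pairs, and among all libraries in 4 of 8. Both libraries of a pair are of 1 set, and the part of the set in these correlations was not tested.

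Members and lists were chosen with earlier results of these data known. Named are members called by limma with or without the block, the most abundant of each subfamily, the 5 largest differences between ADAR mutants and N2 per condition, and 12 members of known role. Others named, such as cyp-35A3, cyp-35A5, cyp-14A3, cyp-14A4 and cyp-31A1, were chosen after their values were seen. Gene types, lengths and order come from WBcel235, another build, so no coordinates are given. The pathway gene hsd-1 was not analysed here.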

Additional observations from a re-analysis of the deposited data

Results flagged for a closer look

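In the 5 libraries of a condition of the ADAR mutants, 7 values of named members stood far from the other 4 among 80 sets of values checked. Chance flags about 1 in 20 such sets where values are independent and normally distributed. The rate for these counts was not measured, and sets of genes from the same libraries are not independent. BB21 replicate 1 under standard conditions was highest for cyp-35C1, at 1056 normalized counts with the next library at 510.4, for cyp-35A2, at 964.9 with the next at 408.6, and for cyp-35A1, at 57.7 with the next at 23.0. BB4 replicate 1 after heat shock was highest for cyp-37B1, at 385.2 with the next at 98.8, for cyp-32B1, at 357.1 with the next at 94.8, and for cyp-37A1, at 556.4 with the next at 296.3. For cyp-31A2, BB21 replicate 2 under standard conditions was lowest, at 1268 with the next at 1578. The library of BB4 replicate 1 is shallow, as is that of BB21 replicate 1, and the part of depth in these values was not tested.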

How the results depend on the processing

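Against 5 members called lower after heat shock in ADAR mutants, there were 12 with the replicate block, 14 with the library set as a term (10.3% of all features), 8 with DESeq2 (4.28%), 8 in the deep libraries alone (6.88%), 7 in the shallow ones (3.27%) and 0 in BB4 or in BB21 alone, where fewer samples enter. Against 0 called higher in ADAR mutants, there were 3 with the block, 2 with the set term (14.2%), 3 with DESeq2 (8.44%) and 5 in the deep libraries (11.9%). In N2, against 0 lower, there were 9 with the block, 10 with the set term (11.2%), 4 with DESeq2 (2.52%), 1 with TMM scaling (0.385%), 3 in the deep (2.04%) and 1 in the shallow libraries (0.803%), and against 0 higher, 2 with the block and 2 with the set term (11.7%). The causes were not tested beyond the samples and terms each fit holds. Leaving out 1 library gave 2 to 5 lower and 0 to 1 higher in ADAR mutants, 0 to 2 lower in N2, and 0 to 1 between ADAR mutants and N2 after heat shock. The call gained higher in ADAR mutants came without BB4 replicate 1 after heat shock, and that between genotypes without N2 replicate 3 after heat shock. Beyond the calls given with it above, the block changed no other call of a P450 feature. Followed were 26 log2 fold changes of members in comparisons in which the fit of 4 groups or the block called them. None changed sign in 779 values under these alternatives, but they were picked as called in these same libraries. Some calls made only in the deep libraries did change sign in ADAR mutants. Within the shallow libraries cyp-35A1, cyp-35A2, cyp-35A3 and cyp-35A5 were at -0.28, -0.31, -0.12 and -0.66. There cyp-33C8 was at 0.57, whereas cyp-29A2 kept its sign at 0.22. Subsets with 1 N2 library per condition assume that it varies like the other groups. Low counts limit the 26 features with means under 20 normalized counts, where a difference may not be detectable.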
